A study of Homo sapiens with 4 samples.

Results

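Translation initiation factors (eIFs) and elongation factors (eEFs) were examined in SK-MEL-28, an established human melanoma cell line, after induction of MYC. The genes were taken from the table of expression values by their symbols, which had to begin with EIF and a digit or with EEF1 or EEF2 and one of the letters A, B, D, G or K. Of 66 symbols found in this way, 8 were left out by their ending or as antisense genes and 1 because its mean over the libraries was under 1 FPKM, which left 57 of the 11147 genes that passed this filter. FPKM are fragments scaled to transcript length and to all mapped fragments of the library, so levels of different genes can be compared per length. The table held 25268 symbols in all. EIF4E1B was the gene under the filter, with a mean of 0.00328 FPKM, and EIF4E3, with 1.07 FPKM, was the member closest above it. The rule also misses EEF2, EEF1E1 and the eIF4E-binding proteins EIF4EBP1, EIF4EBP2 and EIF4EBP3, which are real genes of the pathway and are described with the related genes.

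Initiation begins when eIF2 brings the initiator tRNA to the small ribosomal subunit, together with eIF1, eIF1A, eIF5 and the large scaffold eIF3. The cap-binding complex eIF4F, made of eIF4E, eIF4G and the helicase eIF4A, recruits the mRNA, and eIF5B joins the large subunit at the start codon. During elongation eEF1A delivers aminoacyl-tRNAs, the eEF1B subunits recharge it with GTP, eEF2 moves the ribosome, and eIF5A helps at stalled peptide bonds. MYC is widely known as a driver of ribosome and protein synthesis genes, and the eIF4F subunits are among its often cited targets.

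SK-MEL-28 cells stably carried either the empty pTRIPZ vector (vector cells) or a MYC gene under a promoter that doxycycline (Dox) switches on (MYC cells), introduced by lentivirus and selected with geneticin (G418). Libraries were made from each line left untreated or given Dox at 0.5 μg/ml for 54 h, which gave 4 libraries, 1 per condition. The sources used here do not state whether a line was a clone or a pool. Without replicates no difference could be tested, and the text gives values only.

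All 4 libraries carried the 8 melanocyte lineage markers examined (MLANA, PMEL, TYR, TYRP1, DCT, MITF, SOX10 and S100B), at 14.2 FPKM or more. The 10 markers of keratinocytes, fibroblasts, leukocytes and endothelium did not exceed 0.195 FPKM. The summed level of the melanocyte markers was 8578 and 8467 FPKM in vector cells (without and with Dox) and 8433 and 4666 FPKM in MYC cells, and its part in the results below was not tested. MYC itself read 58.3 and 54.8 FPKM in vector cells and 76.5 and 87.1 FPKM in MYC cells, again without and with Dox. Its log2 change was 0.19 in MYC cells and -0.09 in vector cells, both under 25%. The library labelled MYC with Dox (MYC plus Dox below) is therefore named by its label. In these values it was not told apart from untreated MYC cells by a large MYC difference. Against Dox-treated vector cells it read 87.1 beside 54.8 FPKM, a difference past 1.5-fold. MYC cells without Dox, at 76.5 FPKM, were already above both vector libraries. In separate assays of the MYC cells, the paper reports that Dox raised MYC mRNA, measured by RT-PCR, and the activity of a reporter of MYC-driven transcription. The order of vector cells without Dox, vector cells with Dox, MYC cells without Dox and MYC plus Dox is kept below wherever 4 values are given. Depth, estimated from the smallest values in the table, was approximately 35100000 to 42100000 fragments per library. The fewest fragments behind a member, approximately 56.0, were those of EIF4E3, and the approximate counting error of a member's log2 change in MYC cells had a median of 0.0279 and a maximum of 0.245. These errors cover counting only and not differences between cultures.

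The translation factors were higher as a group in MYC cells given Dox, mostly by small amounts. Changes are log2 ratios with 0.1 FPKM added to both values, a scale that understates changes of low genes. Over the 57 genes the median log2 change was 0.25 in MYC cells, where that of all genes tested was -0.03. For vector cells the corresponding medians were 0.04 and 0.01. FPKM are relative to all mapped fragments, so a change in total RNA per cell and a shift in the mixture of cells cannot be told apart from these values. Among the members 47 were above 0 in MYC cells (82.5%, against 46.8% of all genes tested) and 10 were below. With libraries rescaled to the same sum or by the median ratio, 45 and 49 were above. The MYC plus Dox library was the highest of the 4 for 82.5% of the members, compared with 40.2% of all genes tested.

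Few members moved far. At 1.5-fold, 4 of 57 rose (7.02%, against 5.90% of all genes tested) and 1 fell (1.75%, against 8.85%), so the share of large rises was close to the background. Set against Dox-treated vector cells in place of untreated MYC cells, 8 members were at least 1.5-fold higher in the MYC plus Dox library (14%, against 6.50% of all genes tested) and 1 was lower (1.75%, against 8.62%). EIF3C, already higher in MYC cells before Dox and described with its copy EIF3CL below, is among these 8. With a lower threshold, a rise of at least 25% or the inverse fall (at least 20%), 24 rose (42.1%, against 16.9%) and 2 fell (3.51%, against 21.4%). Rises of 25% and falls of 20% below refer to this threshold. In vector cells no member passed 1.5-fold in either direction, where 0.709% of all genes rose and 0.440% fell. At the lower threshold EIF5AL1 alone rose there (background 2.36%) and no member fell (background 1.72%). Before Dox the lines were close to each other. Their median log2 difference over the members was 0.01, EIF3C alone was at least 1.5-fold higher in MYC cells (background 0.592%), and no member was 1.5-fold lower (background 0.287%).

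**Figure D1:**
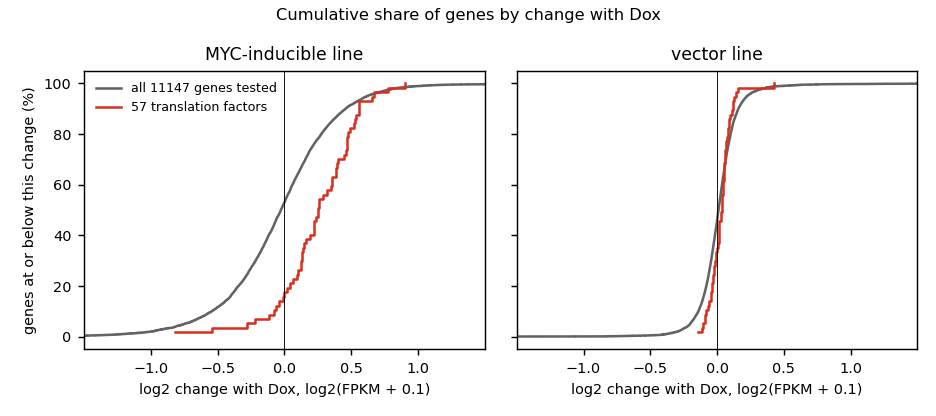
The cumulative share of genes (y axis, %) is plotted against the log2 change with Dox (x axis), for all 11147 genes tested in grey (those beyond 1.5 on the x axis lie outside the plot) and the 57 translation factors in red, in MYC cells (left) and the vector cells (right). The red curve lies to the right of the grey one in MYC cells, with medians of 0.25 and -0.03, and the curves lie close together and cross in vector cells.

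The summed level of the members was 13916, 13885, 13791 and 16291 FPKM, which is 1.98%, 1.95%, 1.99% and 2.28% of all FPKM in the table. EEF1A1 made up the largest single portion. Without it the sums were 9338, 9506, 9264 and 11557 FPKM, and of the 4 sums the MYC plus Dox one was again the highest.

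**Figure D2:**
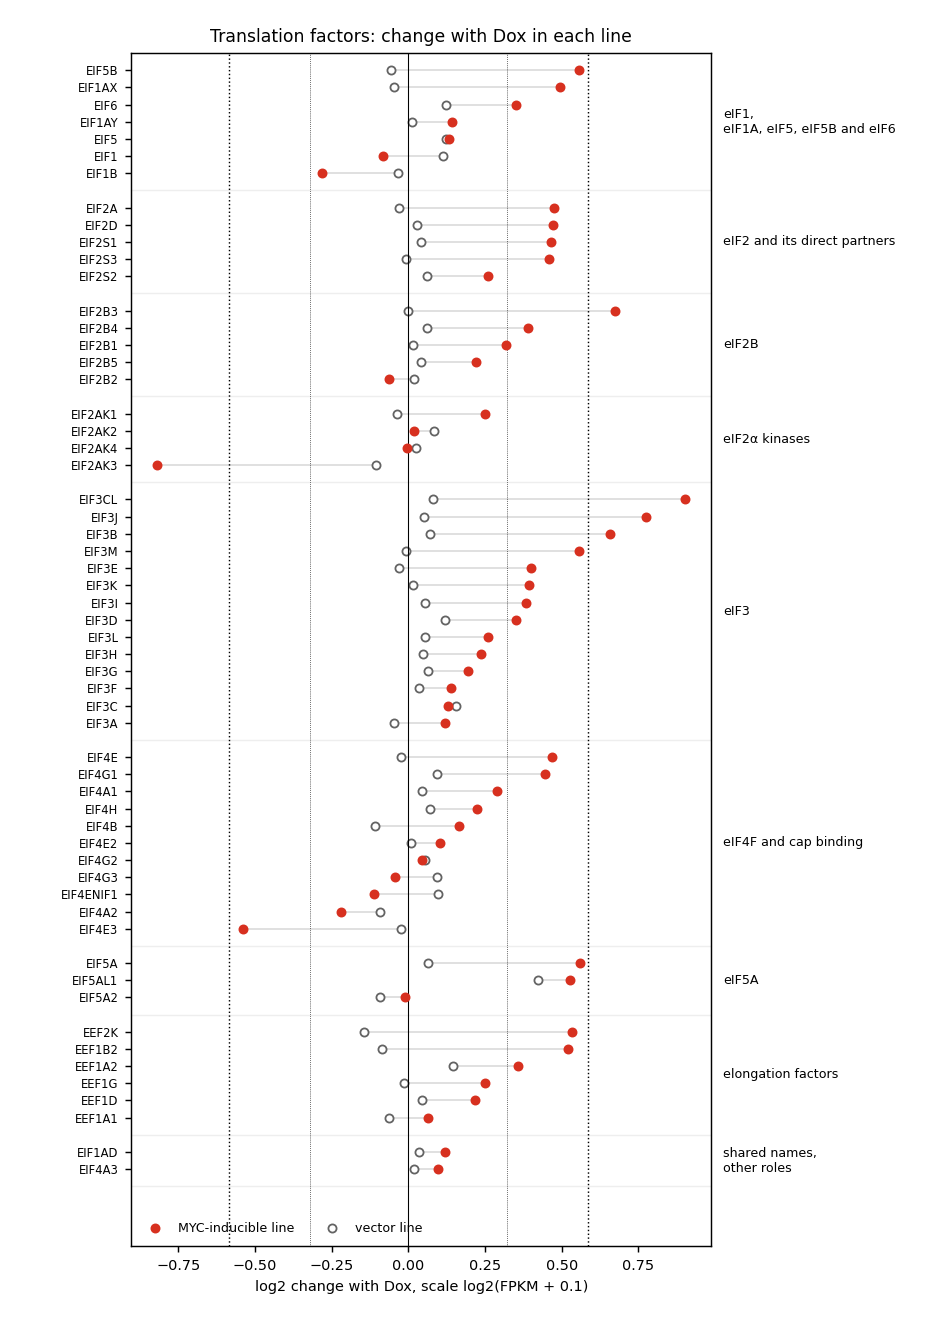
Each row is a translation factor, sorted within its complex or role, and the x axis gives the log2 change with Dox on the scale log2(FPKM + 0.1), with a filled red point for MYC cells and an open point for vector cells, each resting on 1 library per condition, and thin and thick dotted lines at the lower threshold and at 1.5-fold. All 14 eIF3 genes and all 5 genes of eIF2 and its partners have red points above 0, while EIF2AK3 lies far to the left at -0.82. Of all genes tested, 46.8% were above 0 in MYC cells.

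Because many members were higher together, the promoters of the members were searched for CACGTG, the canonical E-box to which MYC binds with MAX. The windows were RefSeq promoter sequences from 250 bases before to 50 bases after each annotated transcription start (table build GRCh38.p14), and the motif is its own reverse complement, so a single search covers both strands. A window was found for 47 members. EEF1A2, EEF1D, EIF2AK1, EIF2S2, EIF3A, EIF3CL, EIF3E, EIF3G, EIF3H and EIF3L had none. A gene counted as positive if any of its windows matched, and the 47 members had 63 windows. CACGTG was present for 12 of the 47 (25.5%), compared with 13.2% of the 8381 tested genes that had a window. Counted per window, which is not the same measure, it was in 7.26% of all 35116 windows. The 12 members carried 15 sites, from 225 to 17 bases before the start. The stretches below are those of the 5 members with a site that rose at least 25% and of the 4 with a site that had the lowest changes. Each is 30 bases, written 5′ to 3′ on the strand of the gene with the E-box in capitals, and its place was found by exact match in GRCh37.
EIF2B3, minus strand of chr1:45452429-45452458: gacagagggacaCACGTGtcgaatgctcct
EEF2K, plus strand of chr16:22217528-22217557: cctgggggcggcCACGTGagcgccacgccg
EIF4E distal site, minus strand of chr4:99850492-99850521: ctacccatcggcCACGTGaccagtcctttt
EIF4E proximal site, minus strand of chr4:99850339-99850368: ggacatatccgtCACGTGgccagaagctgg
EIF4G1 distal site, plus strand of chr3:184032238-184032267: ggctgtggctgtCACGTGacggggcggggg
EIF4G1 proximal site, plus strand of chr3:184032315-184032344: ccctgcgccggtCACGTGggggcgccggct
EIF3K, plus strand of chr19:39109713-39109742: cgaggaagaagtCACGTGgcagccggaaag
EIF4A3, minus strand of chr17:78121031-78121060: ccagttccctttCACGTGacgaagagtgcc
EIF2AK2, minus strand of chr2:37384287-37384316: gtgcaggggcagCACGTGggtgccaagccc
EIF5A2 distal site, minus strand of chr3:170626596-170626625: actaatccgcagCACGTGgggttgccaggg
EIF5A2 proximal site, minus strand of chr3:170626571-170626600: cagggcgctcttCACGTGactgggcggagc
EIF1B, plus strand of chr3:40351132-40351161: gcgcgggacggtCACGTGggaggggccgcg

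Members with an E-box in a window did not have the higher median. Their log2 changes in MYC cells had a median of 0.19 for the 12 members with CACGTG, and the 35 without it had 0.29. Over all tested genes the medians were 0.02 with the motif and -0.03 without. Of the 12 members with the motif 5 rose at least 25% (41.7%), and of the 35 without it 16 did (45.7%). Over all tested genes the order was the other way, with 23.2% of those with the motif and 15.6% of those without it. The 3 members with 2 sites, EIF4E, EIF4G1 and EIF5A2, had log2 changes of 0.47, 0.44 and -0.01. EIF3B, EIF3J, EIF1AX and EIF5A had no CACGTG in their windows, with changes of 0.66, 0.78, 0.49 and 0.56. Neither did EIF2AK3, EIF4E3 and EIF4A2, with changes of -0.82, -0.54 and -0.22. A second feature was the start base. Terminal oligopyrimidine mRNAs, which mTOR signalling controls at the level of translation, begin with a C followed by a run of pyrimidines. A C and 4 pyrimidines at an annotated start were found for 11 of the 47 members (23.4%), against 7.80% of tested genes. Counted per window rather than per gene, the share was 4.07% of all windows. The 11 members were EEF1A1, EEF1B2, EIF2A, EIF2D, EIF2S3, EIF3D, EIF3F, EIF3K, EIF3M, EIF4A2 and EIF4B. Their median log2 change was 0.39, with 0.22 for the other 36, and the corresponding medians over all tested genes were 0.03 and -0.03. These matches describe the annotated sequence and not a binding site or a measured start. Sequence outside the windows was not searched, and a link between either motif and the changes was not tested.

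eIF3 is the largest initiation complex and gave the largest group of members. All 14 symbols were above 0 in MYC cells (46.8% of all genes tested were), where their median log2 change was 0.37 (vector cells 0.05). By at least 25% 8 of them rose (57.1%, against 16.9% of all genes tested), and by at least 1.5-fold 3 (21.4%, against 5.90%), of which EIF3CL is a copy described with EIF3C below. Their mean levels ran from 29.7 FPKM for EIF3J to 622 FPKM for EIF3K. EIF3J (GRCh37, chromosome 15, 44829323 to 44855227), a loosely bound subunit that also acts in ribosome recycling, read 23.1, 23.9, 26.4 and 45.3 FPKM. The MYC plus Dox library was the high one. The log2 change of 0.78 had an approximate counting error of 0.0495, while that of vector cells was 0.05. EIF3B (chromosome 7, 2393721 to 2420380), a scaffold of the complex, read 151, 159, 155 and 244 FPKM. The log2 change was 0.66 for MYC cells and 0.07 for vector cells. EIF3M followed at 138, 137, 144 and 212 FPKM, a log2 change of 0.56. EIF3A, the largest subunit, was among those that moved least, with 47.9, 46.4, 48.2 and 52.4 FPKM and a log2 change of 0.12. EIF3K, the most abundant, read 582, 588, 569.8 and 749 FPKM, a log2 change of 0.39. The remaining subunits EIF3D, EIF3E and EIF3I had log2 changes of 0.35, 0.40 and 0.38, and EIF3F, EIF3G, EIF3H and EIF3L had 0.14, 0.19, 0.24 and 0.26. With EIF3C and EIF3CL taken as 1 subunit, the changes ran from 0.12 for EIF3A to 0.78 for EIF3J.

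EIF3CL and EIF3C need to be read together, because they are near-identical copies on chromosome 16 whose reads the quantification could have split in different ways. EIF3CL had the highest log2 change of any member, 0.90, with 99.1, 105, 68.0 and 127 FPKM. EIF3C read 52.1, 58.1, 84.1 and 91.9 FPKM, a log2 change of 0.13. Between the untreated libraries EIF3C was higher in MYC cells by 0.69 on the log2 scale and EIF3CL was lower by a log2 difference of -0.54. The sum of both was 151, 163, 152 and 219 FPKM, level between the untreated lines at a log2 difference of 0.01. With Dox the sum changed by 0.53 in MYC cells, compared with 0.11 in vector cells. Relative to Dox-treated vector cells, the MYC plus Dox library differed by 0.28 for EIF3CL and by 0.66 for EIF3C on the log2 scale. With the copies added together, 3 members rather than 4 rose at least 1.5-fold.

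**Figure D3:**
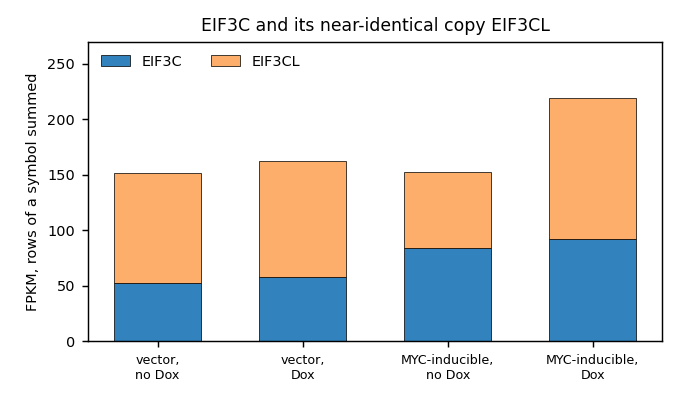
Stacked bars give the FPKM of EIF3C (blue) and EIF3CL (orange) in each of the 4 libraries, with the rows of a symbol summed, from 0. The portion assigned to each copy differs between the untreated libraries, at 52.1 and 84.1 FPKM for EIF3C, whereas the total is 151 and 152 FPKM there and 219 FPKM in the MYC plus Dox library.

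The factors that load and recycle eIF2 were higher with few exceptions. eIF2 is the GTPase that carries the initiator tRNA, and its 3 subunits and 2 related factors had a median log2 change of 0.47 in MYC cells (vector cells 0.03). Of the 5 genes, 4 rose at least 25% (background 16.9%) and none 1.5-fold (background 5.90%). EIF2S1, the α subunit that stress kinases phosphorylate, read 23.2, 23.8, 23.1 and 31.9 FPKM, a log2 change of 0.47. EIF2S3, the GTP-binding γ subunit, read 52.6, 52.3, 53.0 and 72.8 FPKM and changed by 0.46. EIF2S2, the β subunit and the most abundant of the 3, moved least, with 149, 155, 147 and 176 FPKM and a log2 change of 0.26. EIF2A and EIF2D, which can deliver tRNA without eIF2 and are not part of it, both changed by 0.47.

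eIF2B exchanges GDP for GTP on eIF2 and is the step that phosphorylated eIF2 blocks. Of its 5 subunits 4 were above 0 in MYC cells (46.8% of all genes tested were), with a median of 0.32 on the log2 scale (vector cells 0.02). EIF2B3 (chromosome 1, 45316194 to 45452394), part of the catalytic part of the complex, read 28, 28, 26.7 and 42.6 FPKM. Its log2 change of 0.67 was past 1.5-fold, with an approximate counting error of 0.0430. EIF2B2, a regulatory subunit, stood at 28.2, 28.5, 29.2 and 28 FPKM, and its log2 change was -0.06. The others lay between these, at 0.39 for EIF2B4, 0.32 for EIF2B1 and 0.22 for EIF2B5.

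Among the kinases that phosphorylate eIF2 under stress, EIF2AK3 (PERK) is the sensor of unfolded protein in the endoplasmic reticulum. On the scale with 0.1 FPKM added, EIF2AK3 was the only member that fell at least 1.5-fold. It lies on chromosome 2 from 88856259 to 88991036 and read 4.45, 4.13, 4.66 and 2.60 FPKM. The MYC plus Dox library was the low one, and the other 3 were close to each other. The log2 change was -0.82 (approximate counting error 0.0935), beside -0.11 for vector cells. Relative to Dox-treated vector cells the MYC plus Dox library differed by -0.65. The heme-regulated kinase EIF2AK1 read 24.2, 23.6, 24.5 and 29.1 FPKM, a log2 change of 0.25. The RNA-activated EIF2AK2 (PKR) and the amino acid sensor EIF2AK4 (GCN2) had log2 changes of 0.02 and -0.01. The 4 kinases had no common direction.

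In the cap-binding group EIF4E, the cap-binding protein, read 19.2, 18.8, 19.8 and 27.4 FPKM, with a log2 change of 0.47 for MYC cells and -0.02 for vector cells. EIF4G1, the scaffold, read 107, 114, 109.8 and 149 FPKM and changed by 0.44 and 0.09. EIF4A1, the helicase and the most abundant of the group, read 894, 922, 884 and 1079 FPKM and changed by 0.29 and 0.04. In all 3 genes the MYC plus Dox library was the highest of the 4. The accessory factors EIF4H and EIF4B, which stimulate the helicase, had log2 changes of 0.22 and 0.16. Over the 11 genes of the group the median was 0.10, and 2 rose at least 25% (18.2%), a share close to the 16.9% of all genes tested.

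The paralogues had log2 changes from -0.54 to 0.10. EIF4A2, the paralogue of the helicase, read 162, 152, 161 and 138 FPKM, a log2 change of -0.22. The level of EIF4A1 per EIF4A2 was 5.53, 6.08, 5.50 and 7.82. EIF4G2 (DAP5), which lacks the region that binds eIF4E, read 204, 211, 225 and 231 FPKM, and EIF4G3 read 9.25, 9.87, 10.1 and 9.80 FPKM. Their log2 changes in MYC cells were 0.04 and -0.04, and rescaling each library to the same sum moved EIF4G2 to the other side of 0. EIF4E2, a cap-binding protein tied to translational repression, read 78.2, 78.7, 77.3 and 82.9 FPKM, a log2 change of 0.10. EIF4E3 was at 1.13, 1.11, 1.21 and 0.804 FPKM. Its log2 change of -0.54 passed a fall of 20% but not 1.5-fold, with an approximate counting error of 0.245. With 0.01 FPKM added in place of 0.1, the change was -0.59 and passed 1.5-fold. EIF4ENIF1, the transporter of eIF4E into the nucleus, changed by -0.11.

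Paralogues also differed within eIF5A and the start-codon factors. EIF5A, which carries the modified residue hypusine, read 677, 707, 664 and 977 FPKM, a log2 change of 0.56, while EIF5A2 read 11.3, 10.6, 11.4 and 11.3 FPKM and changed by -0.01. EIF5A per EIF5A2 was 58.4 without and 86.6 with Dox in MYC cells, against 59.7 and 66.5 in vector cells. EIF5AL1 is an intronless copy of EIF5A and its reads may be shared with it. It read 1.37, 1.87, 1.45 and 2.14 FPKM, a log2 change of 0.53 in MYC cells but also of 0.42 in vector cells. EIF1AX read 29.4, 28.5, 31.0 and 43.7 FPKM, a log2 change of 0.49, and its Y-linked copy EIF1AY read 18.1, 18.3, 18.7 and 20.7 FPKM, a change of 0.14. EIF1, which guards the choice of the start codon, was at 438, 473, 432 and 408 FPKM, and its copy EIF1B at 58.3, 56.9, 57.8 and 47.5 FPKM. Their log2 changes were -0.08 and -0.28, and in vector cells 0.11 and -0.03. EIF5B, the subunit-joining GTPase, read 56.2, 54.0, 56.8 and 83.5 FPKM, a log2 change of 0.55. EIF5, the GTPase activator of eIF2, changed by 0.13, and in vector cells by 0.12. EIF6, which keeps the large subunit from joining too early, changed by 0.35, with 0.12 in vector cells.

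**Figure D4:**
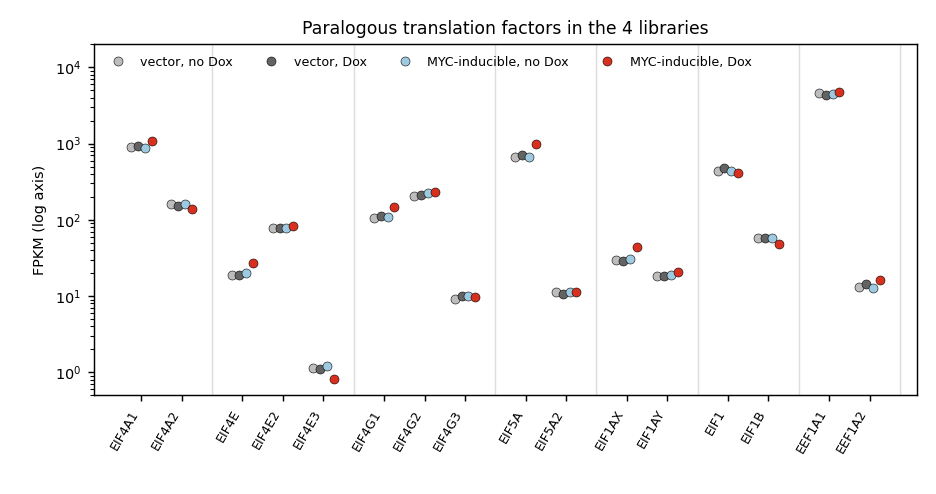
FPKM on a log axis is plotted for 7 sets of paralogous translation factors, with 1 point per library (light grey and dark grey for vector cells without and with Dox, blue and red for MYC cells without and with Dox). The red point is the highest of the 4 for EIF4A1, EIF4E, EIF4G1, EIF5A and EIF1AX, by less for EIF4E2, EIF4G2 and EIF1AY, and also for EEF1A1 and EEF1A2, and it is the lowest for EIF4A2, EIF4E3, EIF1 and EIF1B.

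All 6 genes of the elongation group, which include the kinase EEF2K, were above 0 in MYC cells (46.8% of all genes tested were). Their median there was 0.30 on the log2 scale (vector cells -0.04). Under a filter of 5 FPKM, which leaves out EEF2K, the median was 0.25. EEF1A1, which delivers aminoacyl-tRNA, was the most abundant member of all at 4578, 4379, 4527 and 4734 FPKM and had the smallest change of the group, 0.06. Its tissue-restricted paralogue EEF1A2 read 13.0, 14.4, 12.6 and 16.2 FPKM, a log2 change of 0.36. Here the scarcer paralogue had the larger change, although EEF1A2 differed from Dox-treated vector cells by 0.17. EEF1B2, an exchange factor of eEF1A, read 1007, 949.8, 984 and 1411 FPKM and changed by 0.52. The other subunits of that exchange complex, EEF1G and EEF1D, had log2 changes of 0.25 and 0.22. EEF2K, the kinase that inhibits eEF2, read 3.49, 3.14, 3.63 and 5.30 FPKM. It changed by 0.53 in MYC cells and by -0.15 in vector cells. Symbols that share a name with these factors but act elsewhere were EIF4A3, a core protein of the exon junction complex, and EIF1AD. Their log2 changes were 0.10 and 0.12.

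Related genes of the pathway outside the rule numbered 49. They had medians of 0.25 in MYC cells and 0.03 in vector cells. At 1.5-fold in MYC cells 8 of them rose (16.3%, against 5.90% of all genes) and none fell (background 8.85%). At the lower threshold 20 rose (40.8%, against 16.9%) and 1 fell (2.04%, against 21.4%). The eIF4E-binding proteins, which keep eIF4E from eIF4G, did not move as a set. EIF4EBP1 read 321, 327, 308 and 404 FPKM, a log2 change of 0.39, and EIF4EBP3 read 33.8, 34.8, 31.3 and 58.0 FPKM, a change of 0.89. EIF4EBP3 lies within the read-through locus ANKHD1-EIF4EBP3, and reads of both could be shared. EIF4EBP2 was at 5.99, 5.86, 6.05 and 5.10 FPKM, a change of -0.24. Per FPKM of EIF4E there were 16.7, 17.4, 15.6 and 14.7 FPKM of EIF4EBP1, and the lowest of these ratios was that of the MYC plus Dox library. For EIF4EBP3 the same ratio was 1.76, 1.85, 1.58 and 2.12, the highest in that library. EEF2 and EEF1E1, the elongation genes that the symbol rule missed, had log2 changes of 0.33 and 0.46.

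Mitochondrial translation factors had a median log2 change of 0.36 over 9 genes, of which 6 rose at least 25% (66.7%, against 16.9% of all genes tested) and 3 at least 1.5-fold (33.3%, against 5.90%). TUFM, the mitochondrial counterpart of eEF1A, read 179, 186, 169.9 and 287 FPKM, a log2 change of 0.76. MTIF2 and MRRF, for initiation and ribosome recycling in mitochondria, changed by 0.60 and 0.61. The 8 genes that make hypusine on eIF5A and diphthamide on eEF2 had a median log2 change of 0.19. Of these, 3 rose at least 25% (37.5%, against 16.9% of all genes tested) and 2 at least 1.5-fold (25.0%, against 5.90%). DPH2 read 23.3, 23.4, 24.1 and 42.9 FPKM, a log2 change of 0.83, and DPH7 changed by 0.65. Relative to Dox-treated vector cells they differed by 0.87 and 0.43. DPH1, DPH5, DPH3 and DPH6 changed by 0.56, 0.29, 0.05 and -0.11 in MYC cells. The hypusine enzymes DHPS and DOHH, which act on eIF5A, had log2 changes of -0.15 and 0.08 so neither passed the threshold that EIF5A passed. GSPT1, the release factor eRF3a, changed by 0.66 and MKNK2, a kinase of eIF4E, by 0.59. The 8 genes of eIF4E and eIF4A control, which include MTOR and PDCD4, had a median of 0.06, and the 6 genes of termination and recycling had 0.17.

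Of the members, 45 are overlapped by another annotated gene on GRCh37, among them EIF3J, EIF3B, EIF2B3 and EIF2AK3, and the sources used here do not state whether the values use the strand of the reads.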

How the data were processed

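RNA-Seq of SK-MEL-28 cells was analysed from 4 libraries. The deposited table gives FPKM, which the authors computed for each gene symbol, and the submitters' processing notes name TopHat2 2.0.14, Cufflinks, hg19 and GRCh37. The annotation and the use of strand are not given in the sources used here. Of 27032 rows 1 had no gene name and was dropped, and rows sharing a symbol (609 symbols) were summed. FPKM values are not counts and each condition has 1 library, so no count model or test was applied. Changes are differences of log2(FPKM + 0.1), taken over genes whose mean reached 1 FPKM. Calls were made at 1.5-fold and at a lower threshold, a rise of at least 25% or a fall of at least 20%.

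The members, gene lists and thresholds were chosen with earlier results of these data known. The rule for named genes took members past 1.5-fold, the most abundant and the most and least changed of each role group, 7 paralogue sets (EIF5A, EIF4A, EEF1A, EIF1, EIF3C, EIF1A and EIF4G), the eIF4E-binding proteins and related genes past 1.5-fold. It gave 32 members and 10 related genes, and other genes were named after their values were seen. Depth was estimated from whole multiples among values under 0.2 FPKM in 173 genes annotated with 1 transcript, 1500 bases or longer (multiples up to 12, tolerance 1.2%), with quartiles of 34800000 and 40700000 fragments for vector cells without Dox. Gene positions came from GENCODE release 44 on GRCh37. The log2 changes and the 1.5-fold calls were tested on simulated data with counting noise only, and the other steps were not. Alternatives used pseudocounts of 1 and 0.01, a mean of 5 FPKM or no filter, rescaling to the same sum or by the median ratio, symbols with several rows left out, the lower threshold and 2-fold, Dox-treated vector cells as reference, and means instead of medians. Software was Python 3.11.15 with matplotlib 3.10.9, numpy 2.4.6 and pandas 2.3.3.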

Additional observations from a re-analysis of the deposited data

Results flagged for a closer look

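A single gene of the lists passed the lower threshold in opposite directions in MYC cells and vector cells. PPP1R15A (GADD34), the stress-induced subunit of the phosphatase that reverses eIF2 phosphorylation, read 83.1, 109, 80.3 and 57.8 FPKM (vector cells without and with Dox, then MYC cells without and with Dox). With Dox it changed by -0.47 on the log2 scale in MYC cells, where vector cells changed by 0.39. With 1 library per condition this opposition was not tested, and the gene was chosen after its values were seen.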

How the results depend on the processing

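No paired analysis was possible because only 1 library was made per condition. Of 258 recalculated summary values 239 moved by less than 0.107 on the log2 scale (the robust SD of all genes in vector cells) or, for counts, by less than 1.5 times. The median of the members in MYC cells ranged from 0.19 to 0.28. The lower threshold gave 24 members that rose and 2 that fell in MYC cells and 1 that rose in vector cells. At 2-fold 0 rose and 0 fell. The share of all genes past 2-fold was not calculated, so these counts cannot be set against a background. The count of members that fell became 2 when the pseudocount was 0.01, and 0 when the mean had to reach 5 FPKM, which leaves out EIF2AK3. The eIF5A median was 0.36 at pseudocount 1, 0.27 under the filter of 5 FPKM, 0.36 as a mean and 0.27 with the copies added together, an alternative chosen after seeing the data. Under that filter the termination and recycling genes had 0.32. Against Dox-treated vector cells, 8 members rose (14%, beside 6.50% of all genes), EIF3C among them. The medians in that comparison were 0.12 for the eIF2 kinases, 0.19 for eIF5A, 0.28 for EEF2 with EEF1E1 and 0.57 for the mitochondrial factors. As means, the eIF2 kinases had -0.14 and the eIF2 phosphatase and GCN2 partners 0.087. Why the others moved was not tested. Depth limited low genes most, as for EIF4E3.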
